A study of Mus musculus with 24 samples.

Results

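The 43 mouse genes described here encode the translation initiation factors eIF1 to eIF6 and their binding proteins, out of 18193 genes measured. They are the genes whose array annotation symbol starts with Eif and a digit from 1 to 6, on a probe set (a group of short probes for 1 transcript) with that symbol alone; the eIF2 alpha kinases (Eif2ak) were left out. Of the 120 probe sets of these genes, the one with the highest mean over all 24 arrays stood for each gene. The choice used symbols and levels, and 12 of the 24 arrays averaged are pull-downs, so it can favour a probe set that is high there.

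Brain RNA of male mice, 12 weeks old to within a week, was hybridised to 24 expression arrays. The mice were sleep-deprived by gentle handling for 6 h from light onset or left undisturbed, and all samples carry the same clock time, 6 h after light onset. The groups were RNA pulled down from Homer1a-expressing cells after sleep deprivation (6 arrays) and in controls (6), whole-brain RNA after sleep deprivation (4) and in controls (4), and supernatants, the RNA that pull-downs left behind (4). Homer1a is the activity-induced short form of a postsynaptic scaffold protein. The labels give neither the strain nor the transgene and promoter behind the FLAG tag by which RNA was captured on beads, and do not say whether whole-brain animals carried the tag. Pull-down brains had been fixed with formaldehyde and their RNA was amplified. For the other extracts the labels name no amplification. For supernatant 13 one label says sleep-deprived and another control, so the supernatants were kept as 1 group.

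Initiation is the step at which the small ribosomal subunit is brought to an mRNA and finds its start codon. The eIF4F proteins bind the 5′ cap and unwind the leader, eIF3 holds the small subunit, eIF1 and eIF1A assist scanning, and eIF2 delivers the initiator tRNA with GTP. eIF2B recharges eIF2 with GTP, and eIF5 and eIF5B act at start codon choice and subunit joining. In neurons this step is regulated through eIF2 and through the eIF4E-binding proteins, and it is studied in synaptic plasticity and in sleep.

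RefSeq promoter windows (build GRCm38.p6, 250 bases before to 50 bases after an annotated start) matched 34 of the 43 genes by symbol. The letters CACGTG, a palindrome that reads the same on both strands and the core of the E-box bound by Myc and by clock factors, stood in a window of 9 of these 34 genes (26.5%), against 8.1% of 27025 genes. The cAMP response element TGACGTCA, also a palindrome, stood in none of the 34, against 2.0% of genes. Eif4e, the cap-binding protein, was higher in pull-down and has 2 start windows. The 250 bases upstream of 1 of its starts are shown (chr3:138527018-138527267, plus strand). That window holds CACGTG in 2 places, 228 and 64 bases before the start, in capitals. The window of the other Eif4e start holds no CACGTG.

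Eif4e upstream: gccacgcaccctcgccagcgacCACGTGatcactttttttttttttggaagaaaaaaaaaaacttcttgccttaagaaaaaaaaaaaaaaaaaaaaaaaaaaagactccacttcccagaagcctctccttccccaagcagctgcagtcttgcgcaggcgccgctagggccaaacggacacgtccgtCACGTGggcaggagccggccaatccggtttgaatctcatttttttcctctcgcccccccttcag

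A run of pyrimidines at the start of an mRNA is known as a mark of transcripts for the translation machinery. A run of 5 or more C or T on the gene's strand, touching the 5 bases on either side of an annotated start, was found in 14 of 34 initiation factor genes (41.2%), against 35.1% of all genes. For Eif4e, which was higher in pull-down, the 20 bases before and after the start used above are shown. The other Eif4e start has no such run. The same stretch is shown for Eif3b, Eif2b5 and Eif2b1, which were lower. It is also shown for the X- and Y-linked copies of the eIF2 gamma subunit, which stand on different chromosomes. Capitals mark the run, which need not lie at the first base of the mRNA. The runs of Eif4e and Eif2b1 end before the annotated start, and those of Eif3b and Eif2s3y begin after it. The windows lie at chr3:138527248-138527287 (plus strand), chr5:140419285-140419324 (plus), chr16:20498797-20498836 (plus), chr5:124579112-124579151 (minus), chrX:94212632-94212671 (minus) and chrY:1010575-1010614 (plus).
Eif4e: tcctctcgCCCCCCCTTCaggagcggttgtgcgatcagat
Eif3b: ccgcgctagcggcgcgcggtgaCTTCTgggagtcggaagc
Eif2b5: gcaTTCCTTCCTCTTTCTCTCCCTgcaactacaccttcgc
Eif2b1: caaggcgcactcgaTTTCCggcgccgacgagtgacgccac
Eif2s3x: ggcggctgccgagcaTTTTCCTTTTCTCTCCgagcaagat
Eif2s3y: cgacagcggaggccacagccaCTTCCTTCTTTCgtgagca
The longest of these runs is the 21 letters of Eif2b5, followed by 16 in Eif2s3x, 12 in Eif2s3y, 10 in Eif4e and 5 each in Eif3b and Eif2b1. Among genes with a window, the run stood in 1 of 5 higher in pull-down, 8 of 16 lower and 5 of 13 that were neither, and CACGTG in 2, 2 and 5 of them. These matches are a description of the sequence only.

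Values are deposited log2 RMA intensities, so a difference of 1 is a 2-fold change, and levels of different probe sets cannot be set against each other. Array medians were 4.37 to 5.70 in pull-down, 6.04 to 6.24 in whole brain and 6.09 to 6.21 in supernatant, so that the median of all genes stood at −0.64 in pull-down minus whole brain and −0.66 in pull-down minus supernatant. The 18S rRNA control averaged 8.54 ± 1.5 across the 12 pull-down arrays, against 13.85 ± 0.05 across the 8 of whole brain and 14.29 ± 0.09 across the 4 supernatants (SD), and the gap between the 3′ and 5′ Gapdh probe sets, which grows as RNA gets shorter, averaged 4.92 ± 0.78 in pull-down, 2.75 ± 0.16 in whole brain and 2.43 ± 0.13 in supernatant. These differences run with the extract and cannot be told apart from it. Of the 6 Homer1 probe sets, 3 exceeded both other extracts in pull-down and 2 were below both. Of the marker genes checked, those lower than in both were 3 of 6 for astrocytes, 3 of 5 for oligodendrocytes, 3 of 5 for microglia, 4 of 4 for endothelial cells, 2 of 2 for blood and 2 of 7 for neurons, where 56.7% of all genes were; Gfap of astrocytes and Rbfox3 of neurons were higher. On quantile-normalized arrays, where 12.6% of all genes were lower, the counts were 3, 4, 2, 2, 1 and 3 in that order, and on median-subtracted arrays (6.35%) 2, 2, 2, 2, 1 and 0. In bulk RNA, fewer cells of a type and less RNA per cell cannot be told apart.

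Pull-down was compared with the other extracts to find which initiation factor transcripts were over- or under-represented in RNA of the tagged cells. Of the 43 genes, 8 (18.6%) were higher in RNA pulled down than in whole brain and in supernatant, at an adjusted p under 0.05 in each (limma, Benjamini-Hochberg over 45037 probe sets), where 11.9% of all genes were. Another 22 (51.2%) were lower than in both, where 56.7% of all genes were, and 13 were neither. Taken singly, 8 were higher and 26 lower than in whole brain (12.9% and 68.8% of all genes), and 13 higher and 23 lower than in supernatant (17.4% and 58.7%). The higher genes were Eif4g2, Eif3i, Eif2b2, Eif4e, Eif1ax, Eif4h, Eif2d and Eif1a, and the lower ones held 8 of 11 eIF3 subunits and 4 of 5 eIF2B subunits. These shares lie near those of all genes, and the median difference of the 43 genes, −0.57 from whole brain and −0.46 from supernatant, lay close to the median of all genes, with 23 of 43 above it in each comparison. The comparisons share the pull-down arrays and are not independent of each other. The direction of a call is relative to the scale of the arrays. With all arrays quantile-normalized, 16 genes exceeded both extracts and 12 were below both (30.9% and 12.6% of all genes), with the median of all genes at 0.23 from whole brain. With each array's median subtracted, 19 exceeded both and 3 were below both (49.4% and 6.35%), with that median at 0.51. All 8 higher genes stayed higher under both scalings. Both scalings raised the median of all genes from −0.64, so a higher gene was unlikely to lose its call, and this is a weak check. Of the 22 lower genes, 11 stayed lower after quantile normalization and 3, Eif3d, Eif3b and Eif2b1, under both.

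**Figure D1:**
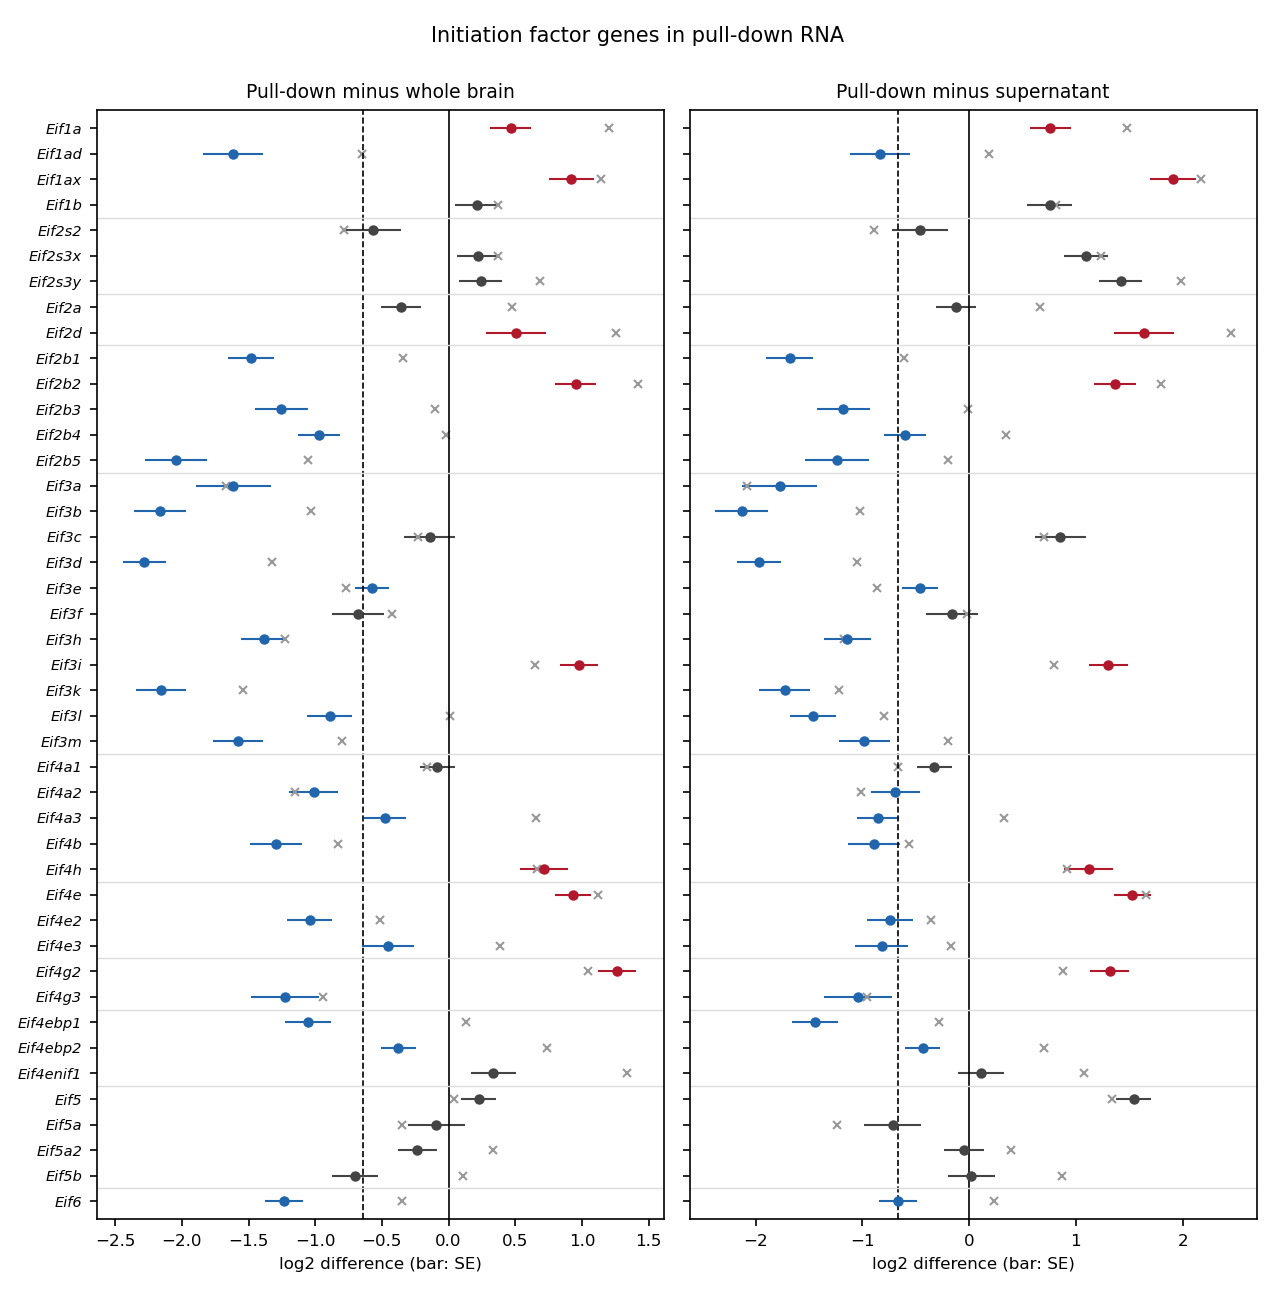
Log2 difference of each of the 43 genes, pull-down minus whole brain (left) and pull-down minus supernatant (right), as circles with SE bars, ordered by factor and divided by grey lines. Red genes were higher and blue genes lower in pull-down than in both extracts on the deposited scale; grey crosses give the same difference after quantile normalization, and the dashed lines mark the median of all genes (−0.64 and −0.66). The 8 red genes keep crosses to the right of 0, whereas 2 blue genes, Eif4a3 and Eif4ebp2, have crosses right of 0 in both panels.

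The largest upward differences from whole brain were those of Eif4g2, Eif3i, Eif2b2 and Eif4e. Eif4g2 encodes a relative of the eIF4G scaffold that lacks the eIF4E-binding part and serves cap-independent initiation. Its probe set 1452758_s_at had 11.18 to 12.29 in pull-down (median 11.83, 12 arrays), against 10.32 to 10.69 in whole brain (median 10.47, 8 arrays) and 10.66, 10.76, 10.27 and 10.11 in supernatant. No pull-down array reached down to either range. The difference was 1.27 ± 0.14 from whole brain (SE; 2.41-fold, adjusted p = 1.16e-08, limma) and 1.32 ± 0.18 from supernatant (adjusted p = 3.93e-07).

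Eif4e, with 1 of its 2 start windows printed above, had 9.65 to 10.53 in pull-down (median 10.25). It had 9.12 to 9.26 in whole brain (median 9.21) and 8.65, 8.66, 8.65 and 8.47 in supernatant. It was the other of 2 initiation factor genes with every pull-down array above all arrays of both extracts, as 5.38% of all genes were. The difference was 0.93 ± 0.14 from whole brain (1.91-fold, adjusted p = 8.51e-07, limma) and 1.53 ± 0.17 from supernatant (2.88-fold, adjusted p = 1.73e-08).

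Eif3i, a WD-repeat subunit of eIF3, went against most of its complex. It had 11.56 to 12.58 in pull-down (median 12.26), against 11.05 to 11.62 in whole brain (median 11.16) and 10.64, 11.21, 11.21 and 10.53 in supernatant. The lowest pull-down array, control 11, fell inside the whole-brain range, and all pull-down arrays lay above the supernatants. The difference was 0.98 ± 0.14 from whole brain (adjusted p = 9.68e-07, limma) and 1.30 ± 0.18 from supernatant.

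Eif2b2, the beta subunit of eIF2B, had 8.61 to 9.92 in pull-down (median 9.40), against 7.98 to 8.65 in whole brain (median 8.38) and 8.31, 8.11, 7.56 and 7.85 in supernatant. Pull-down and whole brain overlapped at their edges. The difference was 0.96 ± 0.15 from whole brain (adjusted p = 3.74e-06, limma) and 1.37 ± 0.19 from supernatant.

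The remaining 4 higher genes had smaller differences from whole brain. Eif1ax and Eif1a, which encode the scanning factor eIF1A, were higher by 0.92 ± 0.17 and 0.47 ± 0.15, Eif4h, a partner of the helicase eIF4A, by 0.71 ± 0.18, and Eif2d, which can deliver tRNA to the ribosome without eIF2, by 0.51 ± 0.22. Against supernatant they were higher by 1.91 ± 0.21, 0.76 ± 0.19, 1.12 ± 0.23 and 1.64 ± 0.28. The Eif2d difference from whole brain, at an adjusted p of 0.0379 (limma), depended on which arrays entered the fit: the call held in 14 of the 24 fits that left out 1 array; the other 7 genes held in all 24. Within the fit of all 24 arrays, pull-down controls were also compared with whole-brain controls and with all supernatants, sleep-deprived ones included. There 5 of the 8 passed (Eif4g2, Eif3i, Eif2b2, Eif4e and Eif1ax). In the same comparison of the sleep-deprived groups 7 passed, all but Eif2d.

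**Figure D2:**
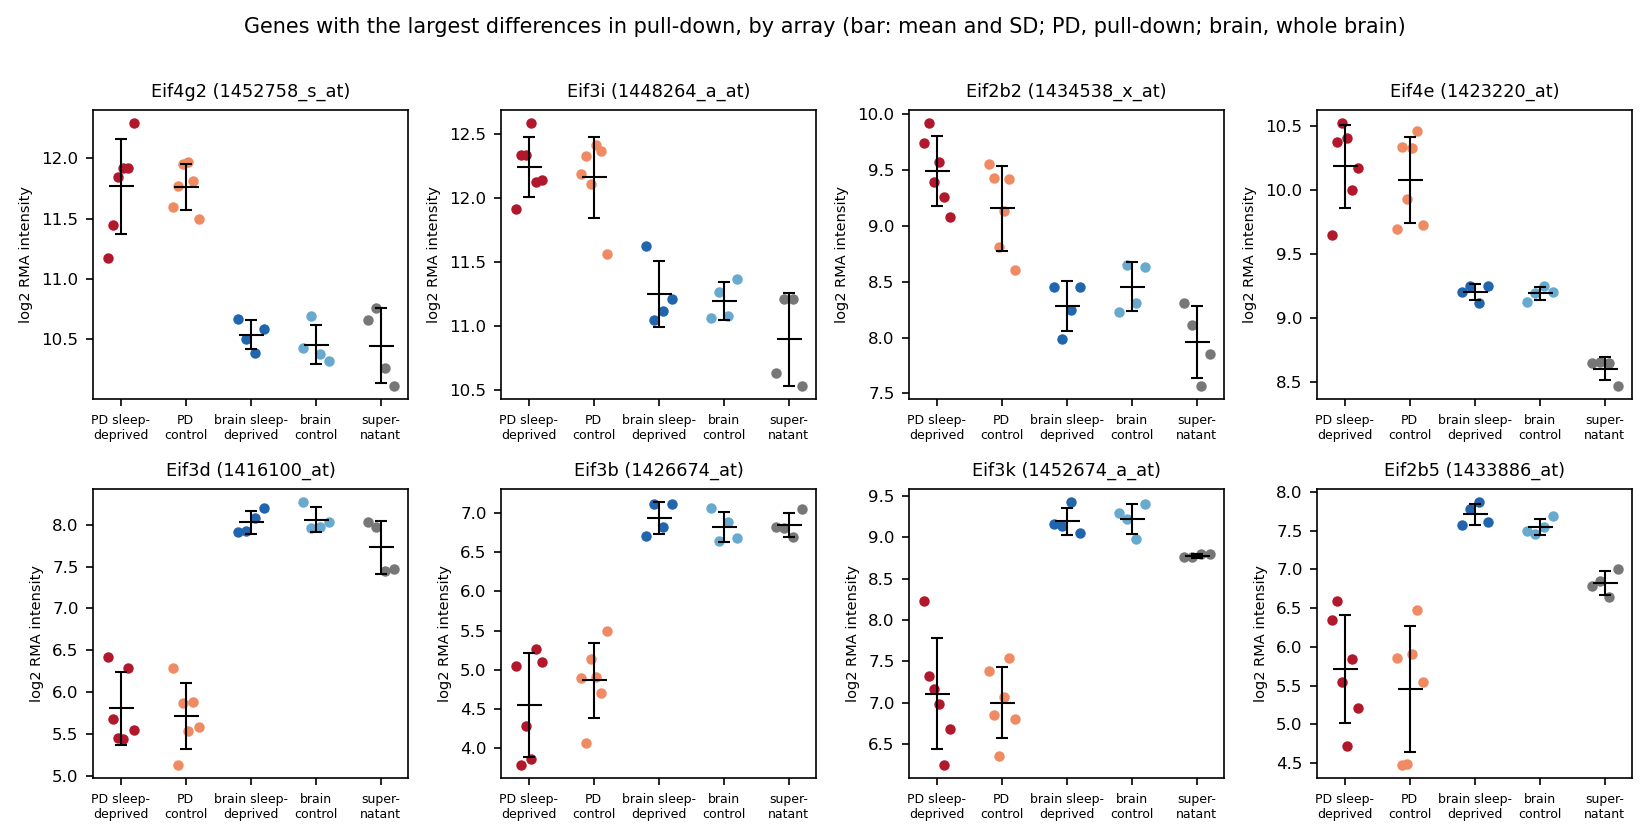
Log2 RMA intensity of each array for the 4 higher genes (top row) and the 4 lower genes (bottom row) with the largest differences, with columns for pull-down after sleep deprivation, pull-down control, whole brain after sleep deprivation, whole-brain control and supernatant; bars are means and SD. Eif4g2 and Eif4e in the top row show pull-down arrays above every other array, and all 4 genes of the bottom row show every pull-down array below the others, with the widest spread within pull-down.

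The 3 lowest differences from whole brain were in subunits of eIF3, the largest initiation factor. Of its 11 measured subunits 8 were lower than in both extracts (Eif3a, Eif3b, Eif3d, Eif3e, Eif3h, Eif3k, Eif3l and Eif3m), 1 higher (Eif3i) and 2 neither (Eif3c and Eif3f), with a median difference of −1.38 from whole brain, where 56.7% of all genes were lower; after quantile normalization 6 were lower (median −0.80; 12.6% of all genes), and after median subtraction 2 (median −0.23; 6.35%), while Eif3e turned higher there. Whether eIF3 differs from other genes was not tested. Eif3d, which in human cells can bind the cap of some mRNAs, had 5.13 to 6.42 in pull-down (median 5.64), against 7.92 to 8.27 in whole brain (median 8.0) and 8.03, 7.98, 7.45 and 7.47 in supernatant. Every pull-down array lay more than a full log2 unit below every other array, and in 7 of the 43 genes no pull-down array reached up to either extract, as in 13.8% of all genes. The difference was −2.28 ± 0.16 from whole brain (4.87-fold lower, adjusted p = 3.6e-12, limma) and −1.97 ± 0.20 from supernatant.

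Eif3b, a scaffold subunit of the eIF3 core, had 3.78 to 5.50 in pull-down (median 4.90), against 6.64 to 7.11 in whole brain (median 6.85) and 6.82, 6.80, 6.69 and 7.05 in supernatant. The groups did not overlap. In pull-down the probe set exceeded the array's median in 1 of 12 arrays, and no detection call was used here, so the size of the difference is uncertain. It was −2.17 ± 0.19 from whole brain (adjusted p = 2.15e-10, limma) and −2.13 ± 0.25 from supernatant.

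Eif3k, a small peripheral subunit, had 6.25 to 8.23 in pull-down (median 7.03), against 8.98 to 9.43 in whole brain (median 9.19) and 8.76, 8.76, 8.80 and 8.80 in supernatant. The groups did not overlap either, with pull-down after sleep deprivation 1 as the highest pull-down array. The difference was −2.16 ± 0.19 from whole brain (adjusted p = 1.34e-10, limma) and −1.73 ± 0.24 from supernatant; with array medians subtracted the difference from supernatant was −0.55 (adjusted p = 0.109).

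The GTP-exchange factor eIF2B split in the same way. Of its 5 subunits 4 were lower (Eif2b1, Eif2b3, Eif2b4 and Eif2b5, the alpha, gamma, delta and epsilon subunits) and Eif2b2 was higher. Of all genes, 56.7% were lower than in both extracts. The 5 subunits had a median of −1.25 from whole brain. The Eif2b2 call rests on an _x_at probe set, a kind that may cross-hybridise, and its 2 other probe sets were lower than in both. On quantile-normalized arrays only Eif2b1 stayed lower than in both, where 12.6% of all genes were lower. With array medians subtracted it was again Eif2b1 alone, where 6.35% of all genes were lower. Whether eIF2B differs from other genes was not tested. Eif2b5, the catalytic subunit, had 4.47 to 6.60 in pull-down (median 5.70), against 7.46 to 7.87 in whole brain (median 7.59) and 6.79, 6.85, 6.64 and 7.01 in supernatant. Pull-down lay below the others in every array, by a narrow margin against supernatant. The difference was −2.04 ± 0.24 from whole brain (adjusted p = 1.74e-08, limma) and −1.24 ± 0.30 from supernatant, and the difference from supernatant was −0.19 after quantile normalization (adjusted p = 0.563) and −0.06 after median subtraction (0.871).

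The cap-binding and helicase proteins went both ways. Among the 3 cap-binding genes Eif4e was higher. Eif4e2 (−1.04 ± 0.17 from whole brain), a cap-binding protein that represses translation, and Eif4e3 (−0.45 ± 0.20) were lower. The Eif4e3 call held in 15 of the 24 fits that left out 1 array, where 19 of the 22 lower genes held in all. After quantile normalization Eif4e3 read 0.38 from whole brain and −0.17 from supernatant. The eIF4G scaffold Eif4g3 was lower (−1.23 ± 0.25) where its relative Eif4g2 was higher. Of the helicase group, Eif4a2 (−1.01 ± 0.18), its stimulator Eif4b (−1.29 ± 0.19) and Eif4a3 (−0.48 ± 0.16), which works in the exon junction complex, were lower, Eif4h was higher, and Eif4a1 read −0.08 ± 0.13 (adjusted p = 0.548). Eif4a3 and Eif4ebp2 turned higher after quantile normalization, and Eif4ebp2 and Eif3e after median subtraction.

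The repressors of eIF4E were lower on the deposited scale. Eif4ebp1 differed by −1.05 ± 0.17 from whole brain and −1.44 ± 0.22 from supernatant, and Eif4ebp2, known as the main eIF4E-binding protein of brain, by −0.38 ± 0.13 and −0.44 ± 0.17. The transporter Eif4enif1, which carries eIF4E into the nucleus, read 0.33 ± 0.17 and 0.11 ± 0.21 and passed neither test, though it was higher than in both under either scaling. The ribosome anti-association factor Eif6 was lower by −1.23 ± 0.14 and −0.67 ± 0.18, and the eIF1A-domain gene Eif1ad by −1.62 ± 0.22 and −0.83 ± 0.28.

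None of the 3 measured eIF2 subunit genes and none of the 4 genes of eIF5, eIF5A and eIF5B passed against both extracts in 1 direction; after quantile normalization Eif2s3x, Eif2s3y and Eif5a2 were higher than in both and Eif2s2 lower. The 5 genes that were higher than in supernatant alone were Eif5 (1.54 ± 0.17), Eif2s3y (1.42 ± 0.20), Eif2s3x (1.10 ± 0.20), Eif3c (0.85 ± 0.24) and Eif1b (0.75 ± 0.21). For Eif3c this rests on an _x_at probe set, and its brightest _at probe set read −2.89 from supernatant. Against whole brain these 5 read between −0.14 and 0.24. Other probe sets read −1.30, −0.14, −1.27 and −1.97 from supernatant for Eif5, 0.51 and −2.37 for Eif2s3x, and −1.03 for Eif2s3y. Of these, all but the ones at −0.14 and 0.51 were lower than in both extracts.

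Of the 43 genes 33 had more than 1 probe set, and in 11 of them (33.3%) different probe sets were called higher and lower than in both extracts, where 20.6% of 9010 genes were. With 2 probe sets this held for 1 of 11 initiation factor genes (9.1%), against 12.5% of all such genes, and with 3 or more for 10 of 22 (45.5%), against 29.4%. After quantile normalization 10 genes, and after median subtraction 6, had calls in both directions. The 11 genes were Eif2a, Eif2b2, Eif2d, Eif3a, Eif3e, Eif3l, Eif3m, Eif4e, Eif4e2, Eif4g2 and Eif4h, so 5 of the 8 genes given above as higher also had a probe set that was lower.

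Eif2a, an alternative carrier of initiator tRNA, had the widest range. Its probe set 1434452_x_at averaged 9.10 ± 0.43 in pull-down, against 5.99 ± 0.20 in whole brain and 5.14 ± 0.40 in supernatant (SD, n = 12, 8 and 4). That is 3.10 ± 0.17 above whole brain, while 1460575_at, which stands for the gene by its higher mean, read −0.35 ± 0.15 and 1445563_at −0.95 ± 0.17. For Eif4e, 1450908_at averaged 7.26 ± 0.76 in pull-down, against 8.97 ± 0.21 in whole brain and 9.68 ± 0.27 in supernatant, opposite to 1423220_at above; 1450909_at and 1444010_at read −0.17 ± 0.16 and −1.01 ± 0.19 from whole brain.

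The other probe sets of the remaining genes shown by array varied likewise. For Eif4g2 the 4 others read −0.39, −0.35, −0.40 and −1.09 from whole brain, for Eif3i the other read −0.03, and for Eif2b2 they read −0.50 and −0.76. For Eif3d the other probe set read −0.75 and for Eif2b5 −1.07, in the direction of the one shown, and Eif3b and Eif3k had only 1. Eif3a had 3 probe sets lower (−1.61, −1.19 and −1.36) and 1 higher (0.99), and Eif4e2 had 4 lower (−1.04, −1.63, −2.16 and −1.20) and 1 higher (0.90). Eif4a1, which passed in neither direction by its brightest probe set, had 2 others at −3.04 and −2.72.

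The direction ran with the kind of probe set. Affymetrix marks probe sets that may cross-hybridise with the suffix _x_at, those shared by several transcripts with _s_at and those for several transcripts of 1 gene with _a_at. Of the genes' probe sets, 6 of 16 with _x_at, 2 of 5 with _s_at, 4 of 21 with _a_at and 3 of 78 with _at were higher than in both extracts, 15 of 120 in all (7.46% of all probe sets), and 71 were lower (65.8%). Over the whole array the shares were 26.4%, 17.7%, 10.3% and 5.22%. When the brightest _at or _a_at probe set stood for each gene, 41 genes had one and 5 of the 8 stayed higher (Eif1a, Eif1ax, Eif2d, Eif3i and Eif4e), while Eif2b2 and Eif4h were then lower than in both and Eif4g2 passed in opposite directions, −0.39 from whole brain and 0.53 from supernatant. Of the 22 lower genes 21 stayed lower; Eif3m had no such probe set. What sets these differences within a gene was not tested.

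**Figure D3:**
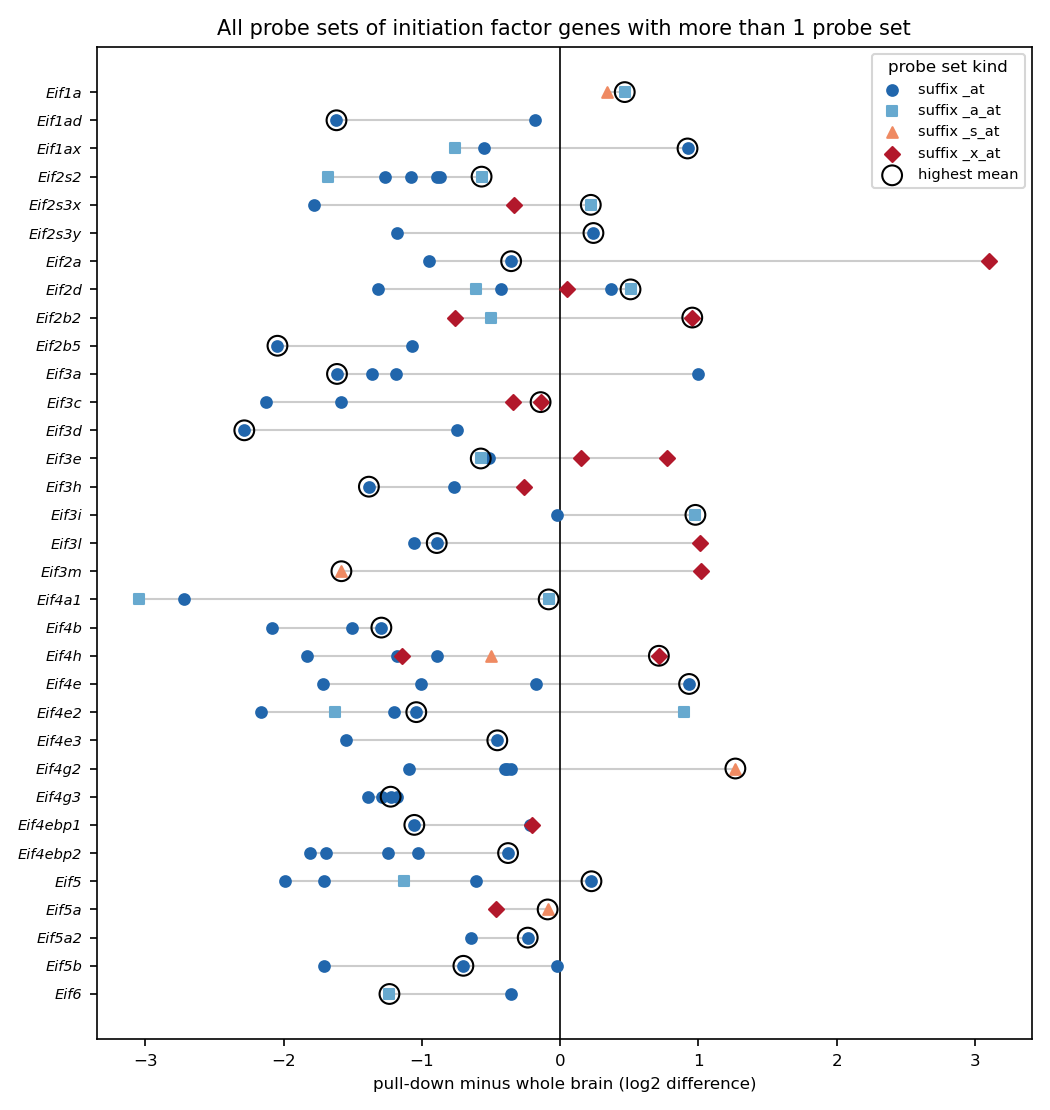
Pull-down minus whole brain log2 difference of every probe set of the 33 genes with more than 1, with colour and shape by Affymetrix suffix; the black ring marks the probe set with the highest mean, which stands for the gene. Probe sets of 1 gene lie on both sides of 0 in many rows, most widely for Eif2a, where an _x_at probe set is at 3.10, and the red _x_at diamonds lie further right than most blue _at circles.

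Whole brain was set against supernatant. Neither is RNA captured on the beads, though supernatant is the RNA that pull-downs left behind. Of the 43 genes, 9 (20.9%) were higher in whole brain and 0 were lower, where 13.2% and 1.31% of all genes were. The 9 were Eif5, Eif2s3y, Eif2d, Eif3c, Eif1ax, Eif2s3x, Eif5b, Eif4e and Eif6. The median of the 43 genes was 0.31, against 0.02 for all genes. Without supernatant 13 the count was 4, and with array weights 19 were higher and 3 lower. For these alternatives the shares of all genes are not given. On quantile-normalized arrays the counts were 12 and 4 (16.9% and 8.1% of all genes), and on median-subtracted arrays 4 and 0 (9.32% and 2.37%).

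Eif5, the protein that triggers GTP hydrolysis by eIF2 at the start codon, had 10.76 to 11.01 in whole brain (median 10.90), against 9.53, 9.59, 9.61 and 9.58 in supernatant. The groups did not overlap, and the difference was 1.31 ± 0.18 (SE; adjusted p = 1.44e-05, limma). The gamma subunit of eIF2, which binds GTP and the initiator tRNA, has an X-linked and a Y-linked copy in the mouse. Both differed by the probe set that stands for the gene. Eif2s3y had 8.52 to 8.95 in whole brain (median 8.69), against 7.32, 7.97, 7.31 and 7.60 in supernatant, a difference of 1.18 ± 0.22 (adjusted p = 0.000454, limma). Eif2s3x had 9.46 to 9.76 (median 9.63), against 8.72, 8.93, 8.99 and 8.38, a difference of 0.87 ± 0.21 (adjusted p = 0.00694, limma). Other probe sets read −0.17, 0.47, 0.44 and 0.02 for Eif5, 0.15 for Eif2s3y, and 0.85 and −0.59 for Eif2s3x. The X-linked and Y-linked copies are alike in sequence, and whether a probe set reads both was not tested.

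Of the others, Eif2d differed by 1.13 ± 0.30, Eif3c by 1.00 ± 0.26, Eif1ax by 0.99 ± 0.22, Eif5b by 0.72 ± 0.23, Eif4e by 0.60 ± 0.18 and Eif6 by 0.57 ± 0.19. Their other probe sets read 0.67 and 0.62 for Eif1ax, −0.13 and −0.26 for Eif5b, −0.70, 1.03 and 0.03 for Eif4e and −0.23 for Eif6. Those of Eif2d read between −0.23 and 0.01, and those of Eif3c −0.77, 1.08 and 0.32. In 16 of the 43 genes every whole-brain array was above every supernatant, a larger share than the 17.6% of all genes. In 2 of the 43, Eif4a3 and Eif5a, every whole-brain array was below, against 7.16% of all genes. In pull-down, Eif6 and Eif5b among these 9 were also below whole brain.

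Sleep deprivation was compared with undisturbed controls within pull-down and within whole brain. None of the 43 genes passed in either extract on the deposited scale (limma, adjusted p under 0.05), where 0.0% of all genes passed in pull-down in either direction, and 0.0605% were higher and 0.0055% lower in whole brain. At an unadjusted p under 0.05 there were 0 genes in pull-down and 1 in whole brain, Eif2b3, where 1.07% and 10.6% of all genes were. Among the probe sets not standing for a gene, 1434976_x_at of Eif4ebp1 was under 0.05 in pull-down (−0.83, unadjusted p = 0.00416, limma). In whole brain 1444010_at of Eif4e was (−0.58, unadjusted p = 0.000768, limma), as was a probe set each of Eif2a, Eif2b5, Eif4e2 and Eif5b. None of these passed after adjustment. The differences in pull-down had a median of 0.10 (all genes −0.03), with 31 genes above 0 and 12 below, and in whole brain a median of 0.00 (all genes −0.05), with 21 above and 22 below. No gene had sleep-deprived and control arrays without overlap in either extract; 0.055% of all genes had all sleep-deprived arrays above and 0.0165% below in pull-down, and 2.42% and 4.14% in whole brain.

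These comparisons could show only changes above their error. The half-width of the 95% interval was 0.46 to 0.93 in pull-down and 0.21 to 0.36 in whole brain. The median SD of a gene across arrays was 0.39 in pull-down after sleep deprivation and 0.51 in pull-down controls, and 0.12 in whole brain after sleep deprivation and 0.14 in whole-brain controls.

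Among the probe sets that stand for the genes, the smallest p in pull-down belonged to Eif3h, an eIF3 subunit with a protease-like fold. It had 8.83 to 10.11 after sleep deprivation (median 9.20), against 8.08 to 9.39 in controls (median 8.75). The groups overlapped between 8.83 and 9.39, and the difference was 0.57 ± 0.29 (95% interval −0.04 to 1.18, adjusted p = 1.0, limma). Its other probe sets gave 0.14 and −0.10, and in whole brain the difference was 0.07 ± 0.10.

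Eif2b2 had 9.08 to 9.92 after sleep deprivation (median 9.48), against 8.61 to 9.55 in pull-down controls (median 9.27), a difference of 0.34 ± 0.24. In whole brain it read 8.45, 7.98, 8.25 and 8.45 after sleep deprivation, against 8.22, 8.65, 8.31 and 8.64 in controls, a difference of −0.17 ± 0.14. Eif4e2 had 7.91 to 9.34 after sleep deprivation (median 8.09), against 7.34 to 8.61 in pull-down controls (median 7.96), a difference of 0.36 ± 0.28. Both overlapped in pull-down, and other probe sets of the same genes read between −0.24 and 0.00 for Eif2b2 and between −0.37 and −0.09 for Eif4e2.

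In whole brain the smallest p among the probe sets that stand for the genes belonged to Eif2b3, the gamma subunit of eIF2B. It had 6.00, 6.33, 5.95 and 6.10 after sleep deprivation, against 6.16, 6.54, 6.39 and 6.50 in controls. One sleep-deprived array lay within the control range. The difference was −0.31 ± 0.13 (adjusted p = 0.415, limma), and in pull-down it was 0.12 ± 0.31. Eif4enif1 had 6.69, 6.42, 6.55 and 6.60 after sleep deprivation, against 6.69, 6.69, 6.89 and 6.99 in controls, a difference of −0.25 ± 0.11 (adjusted p = 0.458, limma).

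Eif5b, which joins the ribosomal subunits, had 7.89, 8.17, 7.89 and 8.14 after sleep deprivation, against 7.98, 7.79, 7.72 and 7.73 in controls, a difference of 0.22 ± 0.12 (adjusted p = 0.508, limma). Its other probe sets read −0.14 and −0.23, so the sign was not shared within the gene. Of the 4 genes with the largest upward difference in pull-down, Eif4e read 0.11 ± 0.24 between sleep-deprived and control pull-downs and Eif4g2 0.00 ± 0.24. The difference between the changes in pull-down and in whole brain passed for 0 of 43 genes, with 0 at an unadjusted p under 0.05 (0.0% and 0.357% of all genes).

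**Figure D4:**
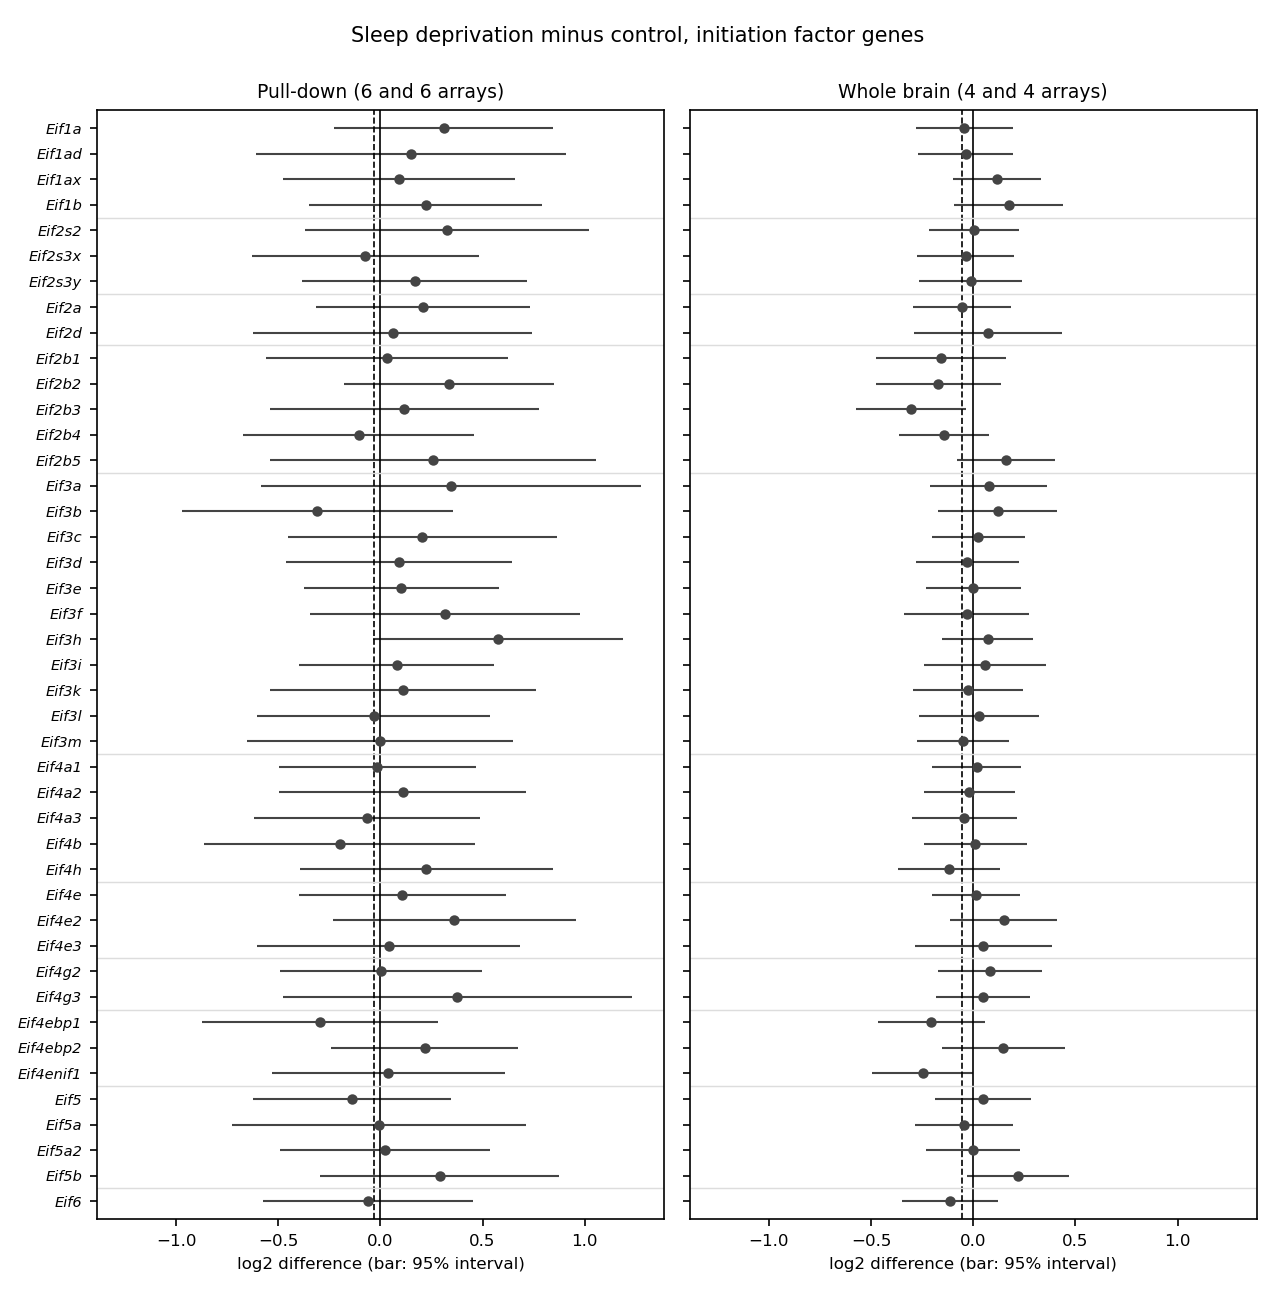
Log2 difference between sleep-deprived and control arrays for each of the 43 genes in pull-down (left, 6 and 6 arrays) and whole brain (right, 4 and 4), with 95% intervals; the dashed lines mark the median of all genes (−0.03 and −0.05). Intervals on the left are wider and all include 0, and on the right only that of Eif2b3 stands clear of 0.

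Other genes of the pathway were described from a list of 37, of which 35 were measured: the eIF2 alpha kinases, mTOR and MAP kinase regulators, poly(A)-binding partners, and elongation and release factors. Of these, 6 exceeded both extracts in pull-down and 13 were below both; the counts were 13 and 9 on quantile-normalized arrays and 21 and 4 on median-subtracted ones. Of all genes, 11.9% exceeded both and 56.7% were below both, 30.9% and 12.6% on quantile-normalized arrays, and 49.4% and 6.35% on median-subtracted ones. Eef2k, the kinase that inhibits elongation factor eEF2, was higher than in whole brain by 1.90 ± 0.12, and Mknk2, a kinase of eIF4E, by 1.34 ± 0.17. Lower were Eef1a2 (−2.92 ± 0.22), the elongation factor eEF1A form of neurons and muscle, Rptor (−2.77 ± 0.28), the scaffold of mTOR complex 1, Tsc2 (−2.58 ± 0.25), its upstream inhibitor, and Mknk1 (−1.41 ± 0.16), the other eIF4E kinase. These 6 kept their calls under both scalings. For Eef2k and Mknk2 this is a weak check, as both scalings raised the median of all genes in pull-down minus whole brain. None of the 35 passed for sleep deprivation in pull-down or in whole brain.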

How the data were processed

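The authors deposited log2 intensities of 45101 probe sets on 24 arrays, made with RMA in the affy package per the submitters' processing notes; versions, and whether all arrays were normalized together, are not given there. After 64 control probe sets were left out, 45037 were tested on the values as deposited, without filter or offset. The array annotation of 2016 gives 1 symbol for 34945 probe sets, several for 932 and none for 9160. The limma package 3.58.1 in R 4.3.3 gave two-sided tests (lmFit, eBayes; Benjamini-Hochberg over all 45037; threshold 0.05): 1 fit of 5 groups for the extracts, with sleep-deprived and control groups weighted equally, and separate fits for sleep deprivation in pull-down, in whole brain and for their difference (20 arrays). The fit was tested on simulated data. Tables were written with Python 3.11.15 and pandas 2.3.3. No label says which samples come from separate animals, so p-values measure the spread between these arrays; their number limits the precision.

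Values are shown in full for the 4 genes with the largest difference from whole brain in each direction among those called against both extracts, and for the 3 with the smallest p for sleep deprivation in each extract. The genes, lists and tests were chosen with earlier results of these data known. Alternatives were quantile normalization, subtraction of array medians, array weights, other probe sets, a filter on low levels and leaving out arrays.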

Additional observations from a re-analysis of the deposited data

Results flagged for a closer look

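Of 65 groups of 4 or 6 arrays tested over the 13 genes shown by array, 4 held a single array far from the rest by Dixon's ratio of gap to range; chance gives about 1 in 20. Eif4e2 read 9.34 in pull-down after sleep deprivation 1, the highest of its group, where the others lay between 7.91 and 8.31. Eif3i read 11.56 in pull-down control 11, the lowest, where the others lay between 12.11 and 12.41. Eif4e read 8.47 in supernatant 13, the lowest, where the others lay between 8.65 and 8.66. Eif5b read 6.67 in supernatant 15, the lowest, where the others lay between 7.35 and 7.41.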

How the results depend on the processing

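No paired analysis was possible because the groups compared share fewer than 2 replicate numbers in the labels: the pull-down groups share 1, and the whole-brain groups 0. The 8 genes higher in pull-down than in both extracts became 16 after quantile normalization, 19 after median subtraction and 15 probe sets when all 120 were counted. They became 5 with _at and _a_at probe sets. They also became 5 when pull-down controls were compared with whole-brain controls and all supernatants within the fit of all 24 arrays. The 22 lower became 12 after quantile normalization, 3 after median subtraction and 71 over all probe sets. For whole brain over supernatant, the 9 higher became 4 after median subtraction, 19 with array weights, 20 over all probe sets and 4 without supernatant 13, and the 0 lower became 4 after quantile normalization, 3 with array weights, 1 with _at and _a_at probe sets and 3 over all probe sets. Leaving out 1 array at a time gave 7 to 11 higher and 21 to 22 lower in pull-down, 4 to 10 higher and 0 lower in whole brain over supernatant, and 0 for sleep deprivation in each extract and for its difference. Without the 2 pull-down arrays with the most 18S signal, 7 were higher and 23 lower, and without these and pull-down control 11, an alternative chosen after seeing the data, 12 and 23. For array weights and left-out arrays the shares of all genes are not given. Whether all genes moved likewise is therefore not known. With _at and _a_at probe sets, the sign of a called extract difference turned for Eif4g2 from whole brain (−0.39), for Eif2b2 (−0.50 from whole brain, −1.49 from supernatant), for Eif4h (−0.89 and −1.27), and for Eif3c in pull-down minus supernatant (−2.89) and whole brain minus supernatant (−0.77). The cause was not tested. Sleep deprivation counts were 0 in every alternative run.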

Other observations

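Pull-down control 11 stood apart in the 43 genes. Its median deviation from the mean of the pull-down controls was −0.53 over these genes and 0.35 over all genes, and 32 of the 43 lay below that mean. Its correlation with the mean of all pull-down arrays, across genes, was 0.924, the lowest of the 24 arrays against their own extract. Without it 11 genes, instead of 8, exceeded both other extracts in pull-down, and the share of all genes without it is not given. Pull-down after sleep deprivation 1 deviated the other way, by 0.43 over the 43 genes and 0.07 over all genes. In 35 of the 43 genes the level exceeded the array's median in all 24 arrays. Each gene was read by its probe set with the highest mean, whereas the median is over all probe sets. The share of all genes is not given, so this count is no trait of the 43.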
